A study of Mus musculus with 10 samples.

Results

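Described here are 8 genes of hypothalamic neuropeptides, *Agrp*, *Avp*, *Gal*, *Ghrh*, *Hcrt*, *Oxt*, *Pmch* and *Trh*, out of 18539 genes on the arrays that could be named. They were chosen by name, as probes whose symbol or RefSeq accession was that of 1 of these genes. Each was measured by 1 probe, so 8 of the 41174 probes are described.

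The 10 arrays were each hybridized with left hemibrain RNA of 1 male C57BL/6J mouse, labeled with Cy-5, against another RNA labeled with Cy-3. The mice were single-housed from 3 weeks of age and fed for 20 weeks, until they were 5 months old. The sources describe the samples differently. The diet entries of the labels give the n-3 PUFA enriched diet (FD) for all 10 Cy-5 samples, with pooled hemibrain RNA of mice on the standard lab diet (SD) in Cy-3, whereas their description fields read as controls, and the methods name 4 FD and 3 SD arrays with purchased reference RNA as the Cy-3 sample. The diet of each array is therefore not settled, FD and SD were not compared, and values are given per array, by animal number, or as the lowest, median and highest of the 10. The arrays lay on 4 slides, of which slides 2 and 3 held 4 arrays each and slides 1 and 4 held 1 each.

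Neuropeptides are cut from larger precursors in dense core granules and released by neurons to act on G protein-coupled receptors of other cells. In the hypothalamus, *Oxt* and *Avp* neurons of the paraventricular and supraoptic nuclei send oxytocin and vasopressin to the posterior pituitary, *Trh* and *Ghrh* neurons release the factors that drive thyrotropin and growth hormone secretion, and *Agrp* neurons of the arcuate nucleus promote feeding. *Hcrt* (orexin) and *Pmch* (melanin-concentrating hormone) are made by separate but intermingled neurons of the lateral hypothalamus, known for their part in wakefulness, sleep and feeding, and *Gal* (galanin) is made in several hypothalamic nuclei and also in other brain regions.

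The hypothalamus is a small share of a hemibrain, and the tissue was checked against marker lists. On the scale of log2 Cy-5/Cy-3, all 4 neuron markers with a value on every array, all 4 astrocyte markers and all 4 oligodendrocyte markers were above 1 on every array, with medians over the lists of 5.75, 5.61 and 4.68. Of 4 liver markers none was above 1 on every array and 3 were not well above background on any array in Cy-5. Of 6 pituitary markers none was above 1 on every array, and *Prl*, the prolactin gene, had a median log2 Cy-5/Cy-3 of -2.61. Of 9 thalamic and 7 choroid plexus markers, 3 and 3 were above 1 on every array. The array of C10-434 stood apart, with a median background-subtracted Cy-5 signal of 28.5 against 60.0 to 171 on the others and 49.8% of probes with a Cy-5 signal well above background, where the others had 68.2% to 76.9%. Results that rest on it are given with and without it.

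The 60 bases before the annotated starts of the 8 genes were sought in RefSeq promoter windows (assembly GRCm38.p6, 250 bases before to 50 after the start). A relation of these bases to the co-variation described below was not tested. The windows matched 7 genes, all but *Agrp*. Those of 5 genes held a TATA-like motif, TATAA or ATAAA on the strand of the gene, with its first base 20 to 40 bases before the start. The capitals mark it, and letters in which both motifs overlap are marked once.
Oxt: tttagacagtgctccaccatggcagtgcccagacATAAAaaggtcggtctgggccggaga
Pmch: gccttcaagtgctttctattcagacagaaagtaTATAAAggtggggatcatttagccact
Hcrt: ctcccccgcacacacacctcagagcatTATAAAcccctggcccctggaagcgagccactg
Trh: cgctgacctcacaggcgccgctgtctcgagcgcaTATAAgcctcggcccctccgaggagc
Ghrh: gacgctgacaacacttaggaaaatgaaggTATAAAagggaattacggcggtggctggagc
These stretches lie at chr2:130576109-130576168 on the plus strand for *Oxt*, chr10:88091012-88091071 on the plus strand for *Pmch*, chr11:100762932-100762991 on the minus strand for *Hcrt*, chr6:92244651-92244710 on the minus strand for *Trh* and chr2:157337427-157337486 on the minus strand for *Ghrh*, which has a second annotated start without the motif there. The same letters stood in this position in 6.83% of 27025 genes with a promoter window. The motif and its position were chosen after the sequences were seen, and a match is a description of letters, not of a working site. In the windows of *Avp* and *Gal* the letters were not at this position.
Avp: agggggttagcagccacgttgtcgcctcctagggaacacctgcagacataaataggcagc
Gal: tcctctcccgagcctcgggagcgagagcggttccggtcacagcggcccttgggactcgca
These lie at chr2:130582589-130582648 and chr19:3414545-3414604, both on the minus strand. With either strand and any position in the window allowed, 45.9% of all 32851 windows and all 8 windows of the 7 genes held one of the motifs. *Oxt* and *Avp* are neighbours on chromosome 2, on opposite strands and with 0 other listed genes between them.

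By their medians most of the peptide genes stood above the Cy-3 RNA, and *Ghrh* and *Agrp* lay near it. Among all 17659 genes with a value on every array, the median log2 Cy-5/Cy-3 was 0.10, with quartiles at -0.72 and 0.99. *Avp*, *Gal*, *Hcrt*, *Oxt*, *Pmch* and *Trh*, 6 of the 8, were above 1 on every array, which 17.2% of all genes were, and 24.7% of the 11293 genes well above background on every array in Cy-5. Under normexp background correction none of the 8 was above 1 on every array, and *Pmch* had a median of 5.72 in place of 8.47. The medians of *Avp*, *Hcrt*, *Oxt*, *Trh* and *Gal* were then 3.40, 3.36, 2.93, 1.36 and 1.32. The values spread more over the arrays for most of these, as for *Oxt*, with a range of 2.90 in place of 0.44. All members but *Agrp* were well above background on all 10 arrays in Cy-5. A ratio here is the hemibrain against the RNA in Cy-3, so the order of the ratios is not an order of abundance in the hypothalamus, and in a whole hemibrain fewer cells of a type and less RNA per cell cannot be told apart.

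**Figure D1:**
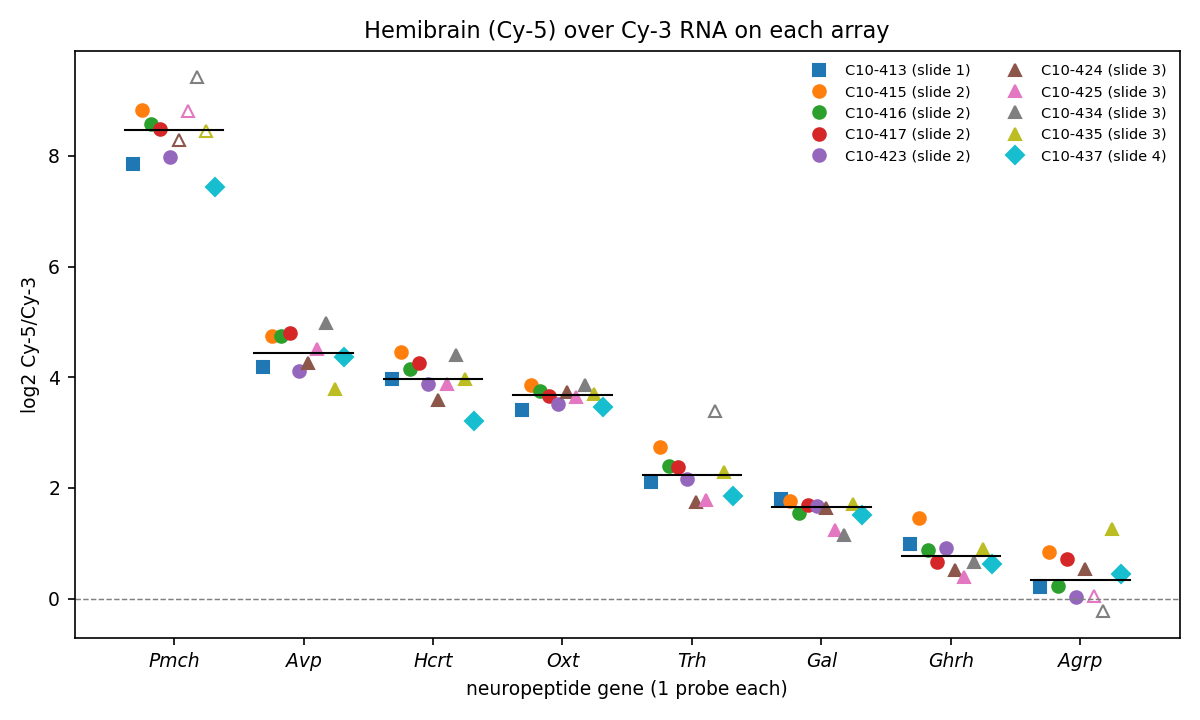
Log2 Cy-5/Cy-3 of the 8 neuropeptide genes, ordered by their median, with 1 point per array. Colour is the animal, shape is the slide, the line is the median of the 10 arrays, and open points are values whose probe was not well above background in either or both dyes on that array. *Pmch* lies above every other gene on each array, and *Ghrh* and *Agrp* lie nearest 0.

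*Pmch*, the precursor of melanin-concentrating hormone, had the highest ratio of the 8. Its log2 Cy-5/Cy-3 was 7.44 at the lowest (C10-437), 8.47 at the median and 9.42 at the highest (C10-434), and 99.8% of genes had a lower median. The Cy-3 signal of its probe was well above background on 6 of the 10 arrays, not on C10-424, C10-425, C10-434 and C10-435, where the ratio has only a lower bound. On C10-434 that bound is a log2 ratio of 7.48, against the measured 9.42. Over the 6 arrays with both dyes well above background, the median log2 Cy-5/Cy-3 of *Pmch* was 8.24 and its range was 1.38, against 1.97 over all 10.

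*Hcrt*, which encodes the orexins, was lower in ratio but measured in both dyes on all arrays. The arrays of slide 2 gave log2 Cy-5/Cy-3 values of 4.45 (C10-415), 4.14 (C10-416), 4.27 (C10-417) and 3.89 (C10-423). Those of slide 3 gave 3.59 (C10-424), 3.87 (C10-425), 4.40 (C10-434) and 3.96 (C10-435). The single arrays gave 3.98 (C10-413) and 3.21 (C10-437), so that C10-437 was the lowest for *Hcrt* as it was for *Pmch*. The median log2 Cy-5/Cy-3 of *Hcrt* was 3.97, a 15.7-fold ratio, and 94.2% of genes had a lower median.

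The neurohypophysial hormones lay near *Hcrt* in ratio. *Avp*, the vasopressin precursor, had log2 Cy-5/Cy-3 values from 3.78 (C10-435) over a median of 4.43 to 4.98 (C10-434), or to 4.81 (C10-417) without C10-434. *Oxt*, the oxytocin precursor, ran from 3.42 (C10-413) over a median of 3.68, a 12.8-fold ratio, to 3.86 (C10-434). The 10 values of *Oxt* thus spanned 0.44, and those of *Avp* 1.20. Among the 10533 genes well above background in both dyes on every array, 8.58% had a smaller range than *Oxt*, and the median range was 0.79. Without C10-434, 11.2% of these genes had a smaller range. Each dye of *Oxt* varied more than its ratio. Its Cy-5 level, the log2 processed signal less the 75th percentile of its array, spanned 0.78, which 38.5% of these genes did not reach, and its Cy-3 level, taken likewise, spanned 0.89.

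*Trh*, the precursor of thyrotropin-releasing hormone, gave log2 Cy-5/Cy-3 values of 1.75 (C10-424) to 3.40 (C10-434), with a median of 2.23. On C10-434 its Cy-3 signal was not well above background, and without that array the highest value was 2.74 (C10-415). *Gal*, the galanin precursor, had a median log2 ratio of 1.66, a 3.16-fold ratio, with 1.15 on C10-434 and 1.25 on C10-425 as the lowest and 1.80 on C10-413 as the highest. The other 7 values of *Gal* lay between 1.52 and 1.76, so the gene was even over the arrays apart from a pair of low ones. Without loess, the lowest value of *Gal* was 0.88, and 5 of the 8 genes were then above 1 on every array.

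*Ghrh*, which encodes growth hormone-releasing hormone, and *Agrp*, the agouti-related peptide that blocks melanocortin receptors, lay closest to the Cy-3 RNA. *Ghrh* ran from 0.39 (C10-425) over a median log2 Cy-5/Cy-3 of 0.77 to 1.46 (C10-415) and was above 0 on all 10 arrays. *Agrp* ran from -0.23 (C10-434) over 0.34 to 1.27 (C10-435). Its probe was not well above background in either dye on C10-425 and C10-434, and its Cy-5 processed signal there was 72.5 and 32.0, against 119 to 212 on the other 8 arrays. *Agrp* was the only one of the 8 with a Cy-5 signal not well above background on some arrays. Over the 8 arrays where it was, its median log2 Cy-5/Cy-3 was 0.49.

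Read in order, the ratios fell from *Pmch* over *Avp*, *Hcrt*, *Oxt*, *Trh*, *Gal* and *Ghrh* to *Agrp*. The range of *Pmch* did not overlap that of *Avp*, and without C10-434, where the Cy-3 signal of *Trh* was not well above background, the highest value of *Trh* was 2.74, against 3.42 as the lowest of *Oxt*. With C10-434, where *Trh* was measured at 3.40 and has only a bound, it is not settled whether *Oxt* and *Trh* overlap. The other neighbours in this order overlapped. Within arrays, *Avp* was above *Hcrt* on 9 of 10, *Hcrt* above *Oxt* on 8 of 10 and *Ghrh* above *Agrp* on 7 of 10, whereas *Trh* was above *Gal*, and *Gal* above *Ghrh*, on all 10.

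The other genes of peptide signaling were taken from lists. The machinery that makes and stores peptides was high: of 8 genes with a value on all arrays, all were well above background on all of them in Cy-5, and 7 had a log2 Cy-5/Cy-3 above 1 on all of them. The median of this list was 5.61. *Pcsk1*, the prohormone convertase, was not well above background in Cy-3 on any array, so its ratio has only a lower bound. That bound was a log2 ratio of 6.03 at the median of the arrays, and it was lower on some of them. *Scg5*, which encodes a chaperone of the convertase made from *Pcsk2*, had a median log2 ratio of 7.47. *Pam*, which amidates peptides such as oxytocin and vasopressin at their ends, was the exception at -0.22. A further 3 genes, *Cpe*, *Pcsk1n* and *Scg3*, had values on 9 arrays, with medians of 3.71, 4.18 and 6.35.

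Of 14 other peptide genes with values, 9 were above 1 on every array and the list's median log2 Cy-5/Cy-3 was 3.10. *Grp*, which encodes gastrin-releasing peptide, again has only a lower bound, since its Cy-3 signal was not well above background on any array. That bound was a log2 ratio of 5.79 on the lowest array and 6.92 at the median. *Pomc*, whose peptides act on the same melanocortin receptors as *Agrp*, had a median log2 ratio of 2.43, and *Npy*, which *Agrp* neurons also make, of 4.47. Both were well above background in both dyes on all arrays, unlike *Agrp*. *Qrfp* was the lowest at -0.25, and *Npvf* was not well above background on any array in Cy-5.

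The receptors of the 8 peptides lay lower. Of 15 receptor genes, 7 were well above background on all arrays in Cy-5, 1 was above 1 on every array and the list's median log2 Cy-5/Cy-3 was 0.63. That gene was *Trhr*, the receptor of thyrotropin-releasing hormone, with a Cy-3 signal not well above background on any array. Its lower bound was a log2 ratio of 2.62 on the lowest array and 4.25 at the median. *Mchr1*, the receptor of melanin-concentrating hormone, had a median log2 ratio of 1.15. *Hcrtr1* and *Hcrtr2*, the orexin receptors, had 1.34 and 0.94, the second with Cy-5 well above background on 4 arrays. *Avpr2*, *Galr1* and *Oxtr* were not well above background on any array in Cy-5.

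Of 12 regulators of hypothalamic development and identity, 3 were well above background in Cy-5 and above 1 on every array. These were *Isl1* and *Lhx9*, which encode transcription factors, and *Hdc*, the enzyme that makes histamine, with median log2 ratios of 3.18, 1.98 and 2.77. *Sim1* and *Otp*, transcription factors needed for the development of *Oxt* and *Avp* neurons, were not well above background on any array in Cy-5, although *Oxt* and *Avp* were on all 10. *Nkx2-1* had a Cy-5 signal well above background on 9 arrays and a Cy-3 signal on none, so that no ratio is given for it. *Hmx2* had the lowest median log2 ratio of the list, -1.68.

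**Figure D2:**
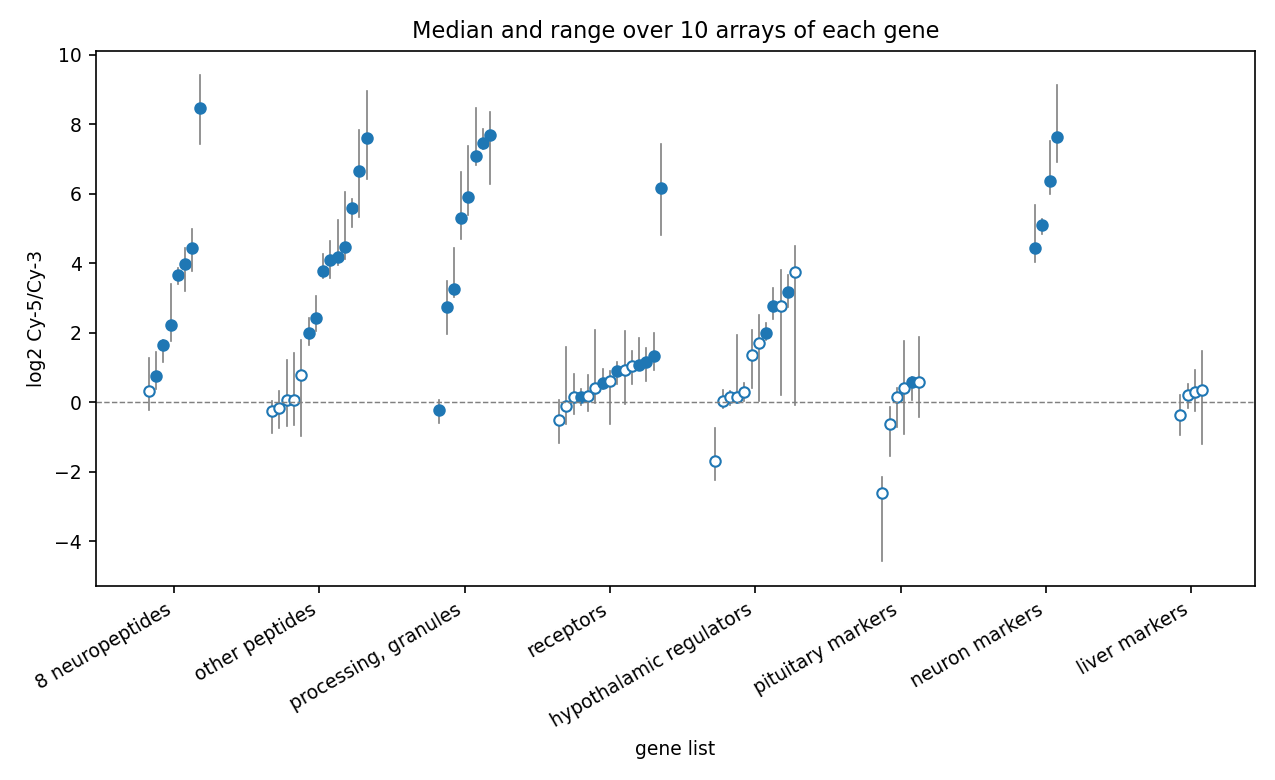
Log2 Cy-5/Cy-3 of each gene of 8 lists, with the median over the 10 arrays as a point and the lowest to highest array as a line. Filled points are genes well above background on all 10 arrays in Cy-5. Of the receptors 1 gene, *Trhr*, stands apart from the others, and the pituitary and liver markers have medians from -2.61 to 0.60.

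The arrays differed in how the 8 genes lay together. On C10-415 all 8 were above their own median, with a median deviation of 0.42 on the log2 scale, and on C10-437 only *Agrp* was. On C10-434, *Avp* and *Oxt* had their highest values and *Gal* its lowest, with both dyes well above background. The medians of other lists also differed on these arrays. On C10-434 the list medians of log2 Cy-5/Cy-3 were at their highest for the neuron (6.60), astrocyte (5.98), oligodendrocyte (5.49) and precursor processing genes (6.61). They were at their lowest there for the choroid plexus markers, at 0.45 against up to 4.67 on C10-416. For the regulators they were also lowest there, at 0.20, where 3 of the 12 genes were well above background on all arrays in Cy-5. The 0.45 is the value of *Otx2*, the middle gene of the 7 markers, and is not a measure of the others. The Cy-3 signal of *Otx2* was not well above background on any array. On C10-437 the neuron markers were lowest, at 5.56, as were the oligodendrocyte markers, at 4.22. On C10-415 the thalamic markers were lowest, at 0.49 against up to 0.93. The part of these in the values of the peptide genes was not tested.

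Co-variation over the arrays was then taken for the 28 pairs of the 8 genes, first on log2 Cy-5/Cy-3. By a permutation test with 100000 resamples, 6 pairs had an unadjusted p under 0.05, and all 6 correlations were positive. Of the 141236 pairs of a member with any gene, 13.1% passed the same threshold, and no pair of members passed it after Benjamini-Hochberg adjustment over all of them. The median r of the 28 pairs was 0.37, against 0.08 over all these pairs. Without C10-434, 5 pairs passed, where 10.8% of all pairs did, and 3 of them were among the 6. The others were *Ghrh* with *Trh*, at an r of 0.84 against 0.38 with that array, and *Gal* with *Ghrh*, at 0.69 against 0.61, with an unadjusted permutation p of 0.0045 and 0.0482 without it.

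After loess, the 6 pairs joined *Hcrt*, *Oxt*, *Pmch* and *Trh* in every combination. Without loess, *Hcrt* with *Oxt* and *Oxt* with *Trh* had an r of 0.49 and 0.51 (permutation p = 0.15 and 0.13). With median centring these were 0.43 and 0.41 (permutation p = 0.22 and 0.25), and *Pmch* with *Trh* had 0.62 (permutation p = 0.0563). *Oxt* and *Pmch* were the closest, with Pearson's r of 0.87 (permutation p = 0.00102, adjusted p = 0.13) and Spearman's rho of 0.82 (permutation p = 0.0061). The r was 0.78 without the 2 arrays farthest from the median of *Oxt*, and 0.98 and 0.69 within slides 2 and 3. On slide 3 the Cy-3 signal of *Pmch* was not well above background on any array, so its ratios there have only a lower bound. *Hcrt* and *Trh* had an r of 0.79 (permutation p = 0.0078, adjusted p = 0.21) and a rho of 0.90 (permutation p = 0.0009), with 0.87 without the 2 farthest arrays and 0.94 within each of the slides 2 and 3. Slide 3 includes C10-434, where the ratio of *Trh* has only a lower bound. Without that array the r over the others was 0.84 (permutation p = 0.0040, adjusted p = 0.27). *Hcrt* and *Pmch* had an r of 0.77 (permutation p = 0.0106, adjusted p = 0.23) and a rho of 0.68 (permutation p = 0.0348), with 0.58 without the 2 farthest. With background subtracted to a floor in place of the processed signals, the r of *Oxt* with *Pmch* was 0.27 (permutation p = 0.44). *Oxt* with *Pmch* kept an unadjusted p under 0.05 with any 1 array left out, as did *Hcrt* with *Trh*, and *Hcrt* with *Pmch* lost it without C10-437 alone.

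The other 3 pairs had a smaller r. *Pmch* and *Trh* had an r of 0.70 (permutation p = 0.0258, adjusted p = 0.31), and 0.28 without C10-434 and C10-437, the arrays farthest from the median of *Pmch*. Without C10-434 alone it was 0.43 (permutation p = 0.25), without C10-415 alone 0.68 (permutation p = 0.0528) and without C10-437 alone 0.68 (permutation p = 0.0456). Over the 6 arrays with both dyes well above background for both genes, none of them on slide 3, it was 0.97 (permutation p = 0.0068). With slide means subtracted on slides 2 and 3 it was 0.80 (permutation p = 0.011), where the *Pmch* ratios of slide 3 have only a lower bound. *Hcrt* with *Oxt* and *Oxt* with *Trh* had an r of 0.64 and 0.63, with adjusted p of 0.36 and 0.37 by the permutation test. Without C10-434 these were 0.56 and 0.49, with an unadjusted permutation p of 0.11 and 0.18, and each of them lost the unadjusted threshold on omission of any of 7 single arrays. The neighbours *Avp* and *Oxt* had an r of 0.56 (permutation p = 0.0962, adjusted p = 0.48), below that of *Oxt* with *Pmch*.

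The same pairs were also taken on the Cy-5 level alone, and there the pattern differed. Of 28 pairs 5 had an unadjusted p under 0.05, where 10.2% of all pairs of a member with a gene did, and none passed after adjustment over all pairs. Without C10-434, 5 pairs passed, where 8.95% of all pairs did. Of the 5 pairs over 10 arrays, 2 were also among the 6 by ratio, and only *Hcrt* with *Pmch* had the same sign in both. The sign of r was the same by both quantities in 16 of the 28 pairs.

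**Figure D3:**
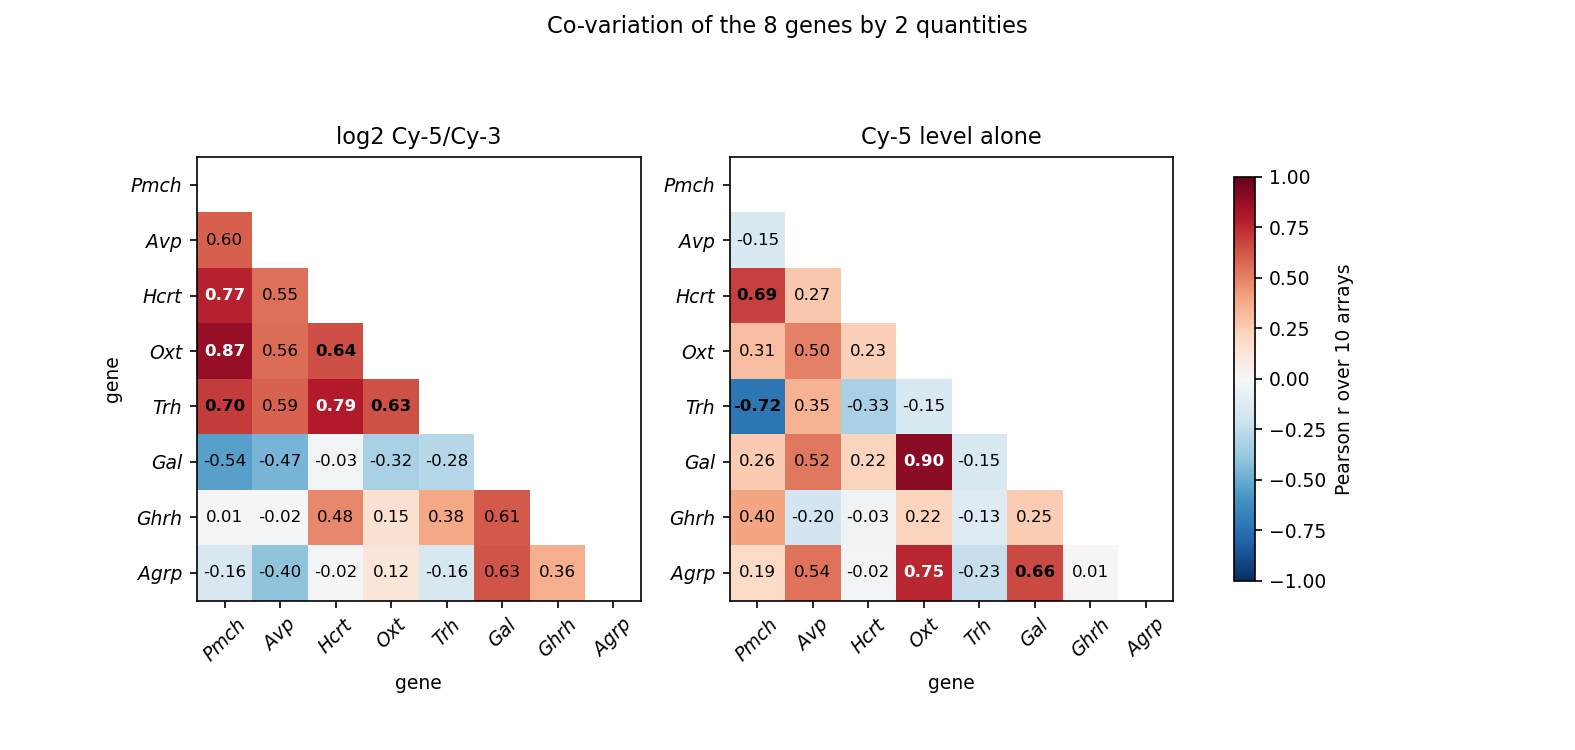
Pearson's r over the 10 arrays for each pair of genes, by log2 Cy-5/Cy-3 on the left and by the Cy-5 level alone on the right, with colour from -1 (blue) to 1 (red). Numbers in bold have an unadjusted permutation p under 0.05. The block of *Pmch*, *Hcrt*, *Oxt* and *Trh* on the left is not seen on the right, where *Gal* with *Oxt* has the largest r, 0.90.

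*Hcrt* and *Pmch*, the genes of the lateral hypothalamus, were the pair that held by both quantities. By the Cy-5 level their r was 0.69 (permutation p = 0.0224, adjusted p = 0.38), with a rho of 0.64 (permutation p = 0.0552). Both genes were lowest in Cy-5 level on C10-437. There the Cy-5 level of *Hcrt* was 0.72, against 1.58 to 2.27 on the other 9 arrays, and that of *Pmch* was 1.86, with C10-413 next at 1.88 and the others from 2.33 to 3.08. Without C10-437 the r was 0.49 by Cy-5 level (permutation p = 0.18) and 0.61 by ratio (permutation p = 0.0814), so the relation rested in part on that array. C10-437 was the only array of its slide, so slide and animal cannot be told apart there.

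*Gal* and *Oxt* had the largest r by Cy-5 level, 0.90 (permutation p = 0.00027, adjusted p = 0.13), with a rho of 0.90 (permutation p = 0.00079). It was 0.91 without the 2 arrays farthest from the median of *Gal*, 0.92 without C10-434 and 0.90 after slide means were subtracted on slides 2 and 3. By log2 Cy-5/Cy-3 the same pair had an r of -0.32 (permutation p = 0.37, adjusted p = 0.76). *Agrp* with *Oxt* and *Agrp* with *Gal* also passed the unadjusted threshold by Cy-5 level, at 0.75 and 0.66, with adjusted p of 0.31 and 0.44 by the permutation test. Without C10-425 and C10-434, where *Agrp* was not well above background, the r of these pairs was 0.52 and 0.44. *Pmch* and *Trh* changed sign, from 0.70 by ratio to -0.72 by Cy-5 level (permutation p = 0.0215, adjusted p = 0.37). By Cy-5 level it was -0.54 without C10-437 and C10-413, the arrays farthest from the median of *Pmch*, and -0.54 with slide means subtracted.

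**Figure D4:**
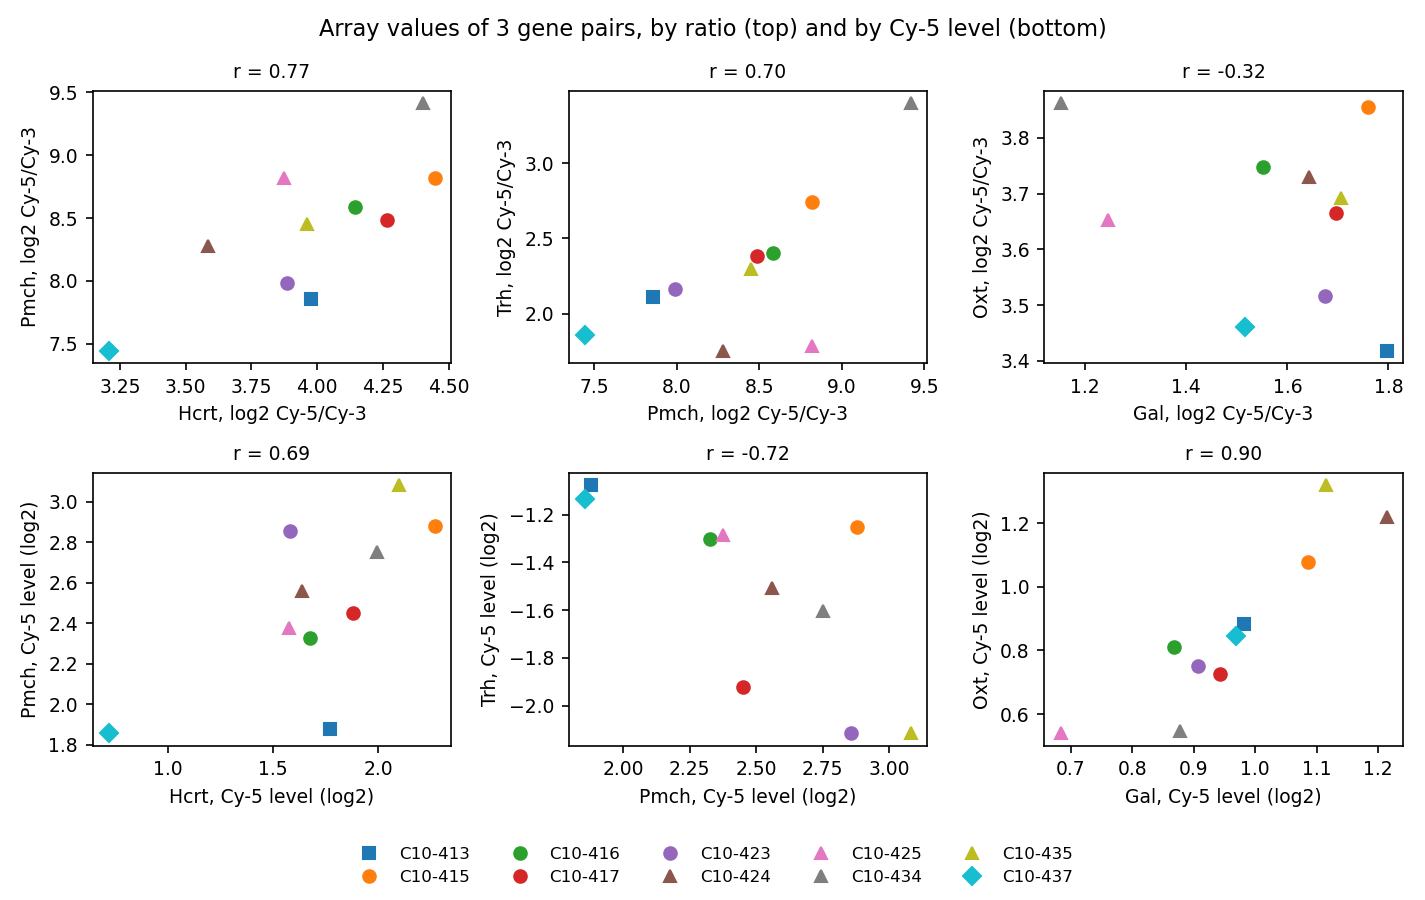
Array values of *Hcrt* and *Pmch*, *Pmch* and *Trh*, and *Gal* and *Oxt*, by log2 Cy-5/Cy-3 in the upper row and by the Cy-5 level (log2) in the lower row, with 1 point per array. For *Pmch* and *Trh* the slope turns from r = 0.70 to r = -0.72, and for *Gal* and *Oxt* from -0.32 to 0.90.

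The levels of both dyes were therefore set against each other for each probe, a comparison added after the values had been seen. The Cy-3 RNA is described as a single pool or reference, and the median range of the Cy-3 level over the arrays was 0.23 among the 10533 genes well above background in both dyes. The Cy-3 levels of the 8 peptide genes ranged over more. *Trh* spanned 1.76, *Ghrh* 1.55, *Pmch* 1.53 and *Avp* 1.51, *Agrp* 0.99, *Oxt* 0.89, *Hcrt* 0.63 and *Gal* 0.60. Between 86.0% (*Gal*) and 97.5% (*Trh*) of these genes had a smaller Cy-3 range. The probes of *Pmch*, *Trh* and *Agrp* were not well above background in Cy-3 on all arrays, whereas those of *Avp*, *Ghrh*, *Oxt*, *Hcrt* and *Gal* were.

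Of the 8 genes 2, *Oxt* and *Ghrh*, had a correlation between the dyes past the adjusted threshold, which 23.0% of all 17659 genes passed in either direction. For *Oxt* the Cy-5 and Cy-3 levels had an r of 0.88 over the 10 arrays (permutation p = 0.00115, adjusted p over 17659 genes = 0.0105) and a rho of 0.92 (permutation p = 0.00057). For *Ghrh* the r was 0.87 (permutation p = 0.00231, adjusted p = 0.0169) and for *Trh* 0.76 (permutation p = 0.0156, adjusted p = 0.0617). Without the 2 arrays farthest from the median of the Cy-3 level, these were 0.79, 0.75 and 0.83. The remaining genes had an r of 0.68 (*Avp*), 0.56 (*Agrp*), 0.55 (*Hcrt*), 0.26 (*Pmch*) and 0.01 (*Gal*), with adjusted p of 0.0994 to 0.99 by the permutation test. The median r was 0.44 among genes well above background in both dyes, and 94.0% of them had a lower r than *Oxt*. Without C10-434, where 17.7% of genes passed, the r was 0.86 for *Oxt* (adjusted p = 0.0256), 0.82 for *Ghrh* (adjusted p = 0.0513) and 0.85 for *Trh* (adjusted p = 0.0361) by the same permutation test, so that *Trh* passed and *Ghrh* did not.

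**Figure D5:**
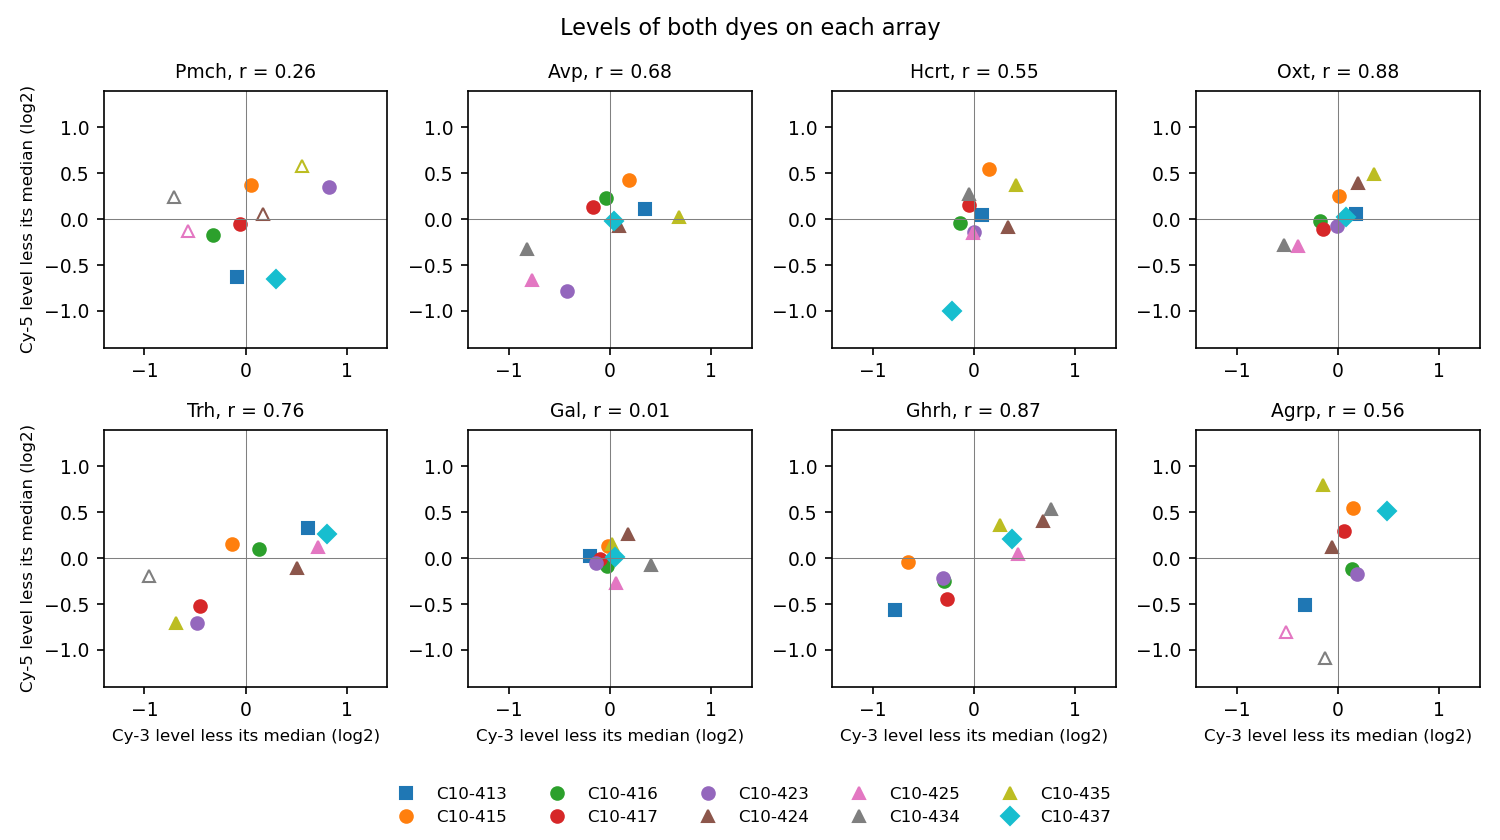
Cy-5 level against Cy-3 level of each gene on the 10 arrays, both as log2 values less the median of the gene, on the same axes for all 8. Open points are values not well above background in either or both dyes. *Oxt* and *Ghrh* rise along a line (r = 0.88 and 0.87), *Gal* keeps within a small area (r = 0.01), and the point of *Hcrt* on C10-437 lies lowest in Cy-5.

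Slides 2 and 3 were compared by limma over 40299 probes. No member probe had an adjusted p under 0.05 or an unadjusted p under 0.05, and 0.0744% and 9.92% of all probes did. The smallest adjusted p among the 8 was 0.68, for *Ghrh*, which was lower on slide 3 by a log2 difference of -0.36. *Pmch* differed by 0.27 in the other direction, with an adjusted p of 0.90 by limma. The values of slides 2 and 3 overlapped for all 8 genes, and the slides held different animals of unknown diet.

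For each gene, the 3 genes of most similar pattern in log2 Cy-5/Cy-3 were taken among those well above background in both dyes on all arrays. They were *Ehbp1l1* (r = 0.99), *Cald1* (0.99) and *Ankzf1* (0.98) for *Pmch*, *Tyw1* (0.98), *Ap3m2* (0.98) and *Mymk* (0.96) for *Oxt*, *Strc* (0.96), *Kif13a* (0.95) and *Cpxm1* (0.95) for *Hcrt*, and *Lmna* (0.93), *Lemd2* (0.93) and *Anp32b* (0.93) for *Avp*. For *Trh* they were *Zfyve28* (0.97), *Septin3* (0.95) and *Gm9* (0.95), for *Gal* *Ints14* (0.93), *Slco4a1* (0.91) and *Fastkd1* (0.91), for *Ghrh* *Ido1* (0.94), *Asprv1* (0.92) and *Ears2* (0.89), and for *Agrp* *Krtap31-1* (0.94), *Pigx* (0.90) and *Ndufa11* (0.86). None of the 8 peptide genes was among the nearest of another, where *Pmch*, *Trh* and *Agrp* could not be, since their probes were not well above background in both dyes on all arrays. These are the highest correlations among 10533 genes, taken over 10 arrays that share slides and labeling, and they are given as a description. *Ido1* for *Ghrh*, *Ehbp1l1* and *Cald1* for *Pmch*, *Tyw1* and *Ap3m2* for *Oxt*, *Lemd2* for *Avp*, *Asprv1* for *Ghrh* and *Krtap31-1* for *Agrp* were also among the nearest 3 without C10-434.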

How the data were processed

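Hemibrain RNA of 10 mice was measured on 10 dual dye Agilent arrays. The authors scanned the slides and extracted the features (Feature Extraction version 10.10.1.1 in the file headers). The deposited processed signals and median signals are intensities of each dye, corrected for background and dye by that software or as scanned. The deposited log ratio of a spot is on the log10 scale, with Cy-5 as the numerator, and the authors also deposited a table of log2 ratios, with 1 value per probe. From the processed signals, log2 Cy-5/Cy-3 was computed with loess within arrays (span 0.3, limma 3.58.1, R 4.3.3), without control spots and outlier-flagged spots, and spots of a probe were averaged. A probe was well above background where at least 0.5 of its spots were flagged so, and a gene was its brightest probe. Names came from RefSeq transcripts (27198 of 41174 probes, assembly GRCm38.p6, names only). A level is the log2 processed signal of a dye less the 75th percentile of its array. A lower bound of a ratio was taken per channel after loess and Aquantile, against the higher of the lowest Cy-3 signal well above background and the probe's own, and is open to dye bias because no dyes were swapped. Promoter windows came from the RefSeq table of the same assembly. Correlations were tested by permutation in Python 3.11.15 with numpy 2.4.6, and slides were compared by limma (Benjamini-Hochberg). In data simulated from the 40299 probes of the slide comparison, 55.5% of 200 probes changed by 1.5 (log2) were recovered.

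The 8 genes, the lists and the rule for named genes (the 8, the 3 nearest genes of each, and list genes) were chosen with earlier results of these data known. *Pomc* and *Npy*, *Scg5*, *Npvf*, *Cpe*, *Pcsk1n*, *Scg3*, *Otx2* and the regulators other than *Hmx2* were singled out from the lists after their values were seen. Samples were left unassigned. The number of arrays limits the precision, and nothing says how far the values of one mouse would repeat.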

Additional observations from a re-analysis of the deposited data

Results flagged for a closer look

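The Cy-5 level of *Hcrt* on C10-437 was 0.72, and those of the other 9 arrays ran from 1.58 to 2.27. Its gap to the nearest array was 0.55 of the whole range, past the critical value of Dixon's test for 10 samples. The test was run on 24 measures, the ratio and both dye levels of the 8 genes, and chance sets about 1 in 20 such groups apart, or 1.2 of 24. On the same array *Pmch* had the lowest Cy-5 level of its 10, at 1.86, without standing apart from C10-413 at 1.88. The log2 Cy-5/Cy-3 of *Hcrt* was also lowest there, at 3.21, with C10-424 next at 3.59, and was not set apart by the test.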

How the results depend on the processing

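No paired analysis was possible because the arrays carry no replicate numbers or groups that could pair them. The count of 6 genes above 1 on every array was 5 without loess, with median centring, in the deposited table and with floored background subtraction, which was chosen after seeing the data, and 0 under normexp. Of the 28 pairs, 6 passed the unadjusted threshold by ratio, 21 under normexp, 8 with slide means subtracted, and 4 to 9 with each array left out in turn. The share of all pairs of a member with any gene that passed is not given under normexp or with slide means subtracted. It is also not given for most of the arrays left out. Without that share, these counts do not show whether the co-variation was particular to the 8 genes. By the Cy-5 level alone the r of *Hcrt* with *Trh* was -0.33, of *Oxt* with *Trh* -0.15 and of *Pmch* with *Trh* -0.72, and without C10-434 these were -0.32, -0.20 and -0.72. With floored subtraction the r of *Oxt* with *Pmch* was 0.27 and that of *Pmch* with *Trh* 0.17. Leaving out each array in turn gave 0.84 to 0.91 for *Oxt* with *Pmch*, 0.76 to 0.86 for *Hcrt* with *Trh* and 0.43 to 0.88 for *Pmch* with *Trh*. No member probe passed the adjusted threshold between slides in any setting run, leave-one-out counts being 0 to 0. By the Cy-5 level alone 2699 probes passed and the smallest adjusted p of a member was 0.12. The median of *Pmch* was 5.72 under normexp and 6.01 with floored subtraction. The cause of these differences was not tested. The mean over all probes of a gene changed nothing for the 8, which have 1 probe each. Signal over background limits *Agrp* in both dyes, *Pmch* in Cy-3 and *Trh* in Cy-3 on C10-434.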
